A study of Mus musculus with 2 samples.

Results

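The claudins of the colonic barrier are described here in colonic epithelial cells of Mettl14 WT and Mettl14 KO mice. The members are 9 claudin genes, Cldn2, Cldn3, Cldn4, Cldn7, Cldn8, Cldn12, Cldn14, Cldn15 and Cldn23, and the occludin gene Ocln. They were chosen by name and make up 10 of the 17829 gene symbols measured and 10 of the 13334 with at least 50 unique molecular identifiers (UMIs) over both libraries. Both groups were C57BL/6 mice, from which live EpCAM+ cells were sorted by flow cytometry and profiled with 10x Genomics 3′ V2 chemistry, in which each UMI counts 1 tagged RNA molecule. The Mettl14 WT group is 1 library of 4210 cells and the Mettl14 KO group is 1 library of 3653 cells. The labels give neither the allele nor the driver of the deletion, nor the age, sex and number of the animals, and the series' own text says 2 weeks with no starting point. Mettl14 encodes a subunit of the methyltransferase that places m6A on RNA.

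Tight junctions seal the space between neighbouring epithelial cells near the lumen. Claudins are membrane proteins with 4-pass topology whose strands form these seals, and the mixture of claudins in a strand sets which ions pass between the cells. Some, such as claudin-2 and claudin-15, form channels for small cations, while others, such as claudin-3, claudin-4 and claudin-8, mainly tighten the strand. In the colon the mixture changes from the crypt base to the surface, and a shift from sealing to channel-forming claudins is known from inflamed bowel.

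The WT library held 60205658 UMIs with a median of 12094 per cell, and the KO library held 37635762 with a median of 9119. Mettl14 itself was at 10.5 CPM (UMIs scaled to a common total for each sum) with 632 UMIs in the WT library and at 5.34 CPM with 201 UMIs in the KO library. The sort marker Epcam, whose protein binds claudin-7, was at 1611 CPM in WT cells, and its KO level was lower by 0.24 on the log2 scale. Clusters are those the authors deposited. By their markers, clusters 1 and 2 were goblet-like, cluster 3 cycling-like, cluster 4 colonocyte-like, cluster 5 enteroendocrine-like and cluster 6 stromal-like. Cluster 6 was mixed, with S100a8 and S100a9, 2 genes known from neutrophils, also among its leading genes. Its WT cells held stromal markers at 6728 CPM, immune markers at 1619 CPM and tuft cell markers at 306.2 CPM. In its KO cells goblet markers, at 5115 CPM, exceeded stromal markers, at 4254 CPM. Cluster 0 was led by pancreatic enzyme genes and is left unnamed. Over all clusters, 33 WT cells and 0 KO cells were rich in these enzymes. Each library held Xist-positive cells, with at least 3 Xist UMIs and none of Y-linked genes (1689 WT, 1696 KO), and Y-positive cells, with a Y-linked UMI and none of Xist (1540 WT, 996 KO). The libraries shared 2 cell barcodes.

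Levels are CPM over the summed cells of a library or cluster, from 3′ tags and so not divided by gene length. A ratio is the KO level over the WT level on the log2 scale, followed in brackets by an exact 95% interval that covers counting error only. A gene is counted as higher or lower when the ratio is at least 1.5-fold and its interval excludes equal levels. With 1 library per genotype there is no replicate check and no test, and every difference is one between these libraries. In sums over all cells, fewer cells of a type and less RNA per cell cannot be told apart, so each member is also given within clusters.

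Of the 10 members, 3 were higher in the KO library (Cldn3, Cldn4 and Cldn14), 3 were lower (Cldn2, Cldn8 and Cldn15) and 4 were neither (Cldn7, Cldn12, Cldn23 and Ocln). Over all 13334 genes measured, 16.7% were higher and 16.2% were lower. Among the 6547 genes with at least the 1572 UMIs of the rarest member, the shares were 13.4% and 9.07%. The median ratio of the members was −0.03, beside −0.04 over all genes measured. The members thus stood on both sides of equal levels, and their median lay near that of all genes.

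**Figure D1:**
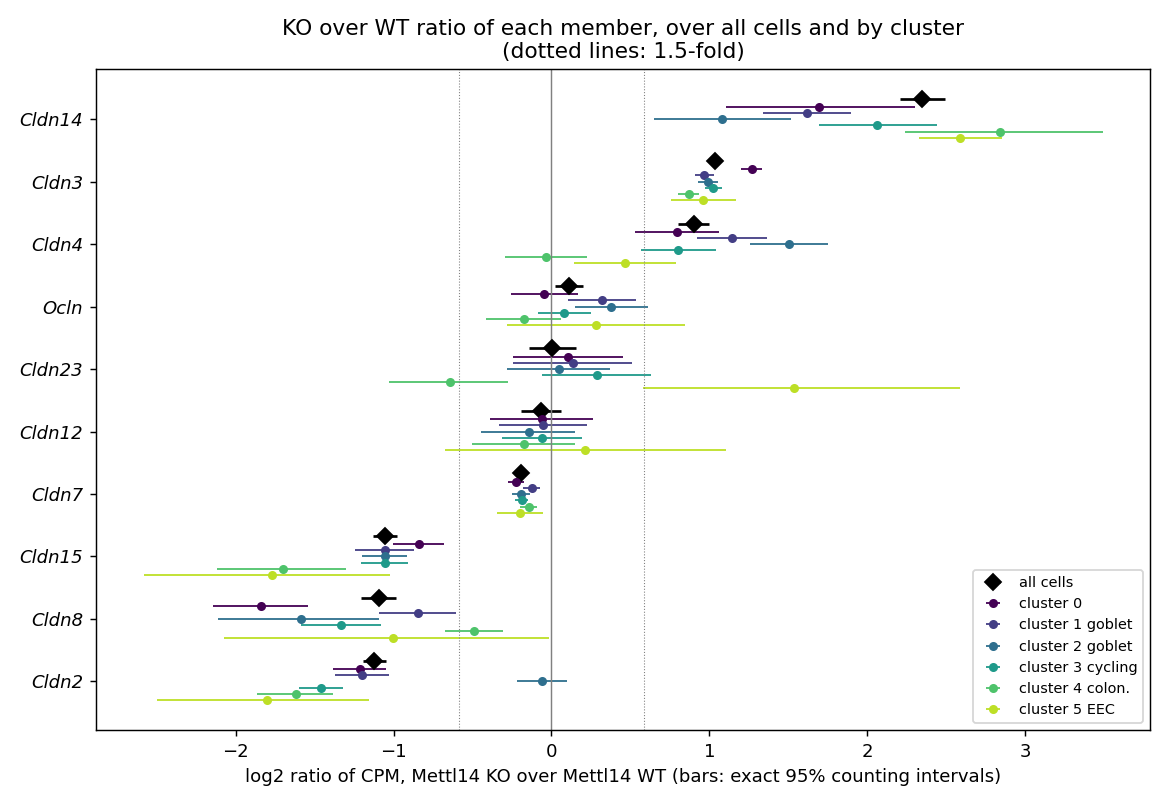
Log2 ratio of KO over WT CPM of the 10 members over all cells, with exact 95% counting intervals as bars. Cldn14, Cldn3 and Cldn4 lie above 0 at 2.35, 1.04 and 0.90, and Cldn2, Cldn8 and Cldn15 lie below it at −1.12, −1.09 and −1.05.

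Cldn2 and Cldn15, both of which encode cation channels, were lower over all cells of the KO library. This does not extend to every claudin linked to ion passage, since Cldn12 and Cldn10, described below, were not lower. Cldn2, which encodes the claudin that forms a channel for small cations and water, was at 115.7 CPM in the WT library (6964 UMIs) and at 53.1 CPM in the KO library (2000 UMIs), a ratio of −1.12 (−1.20 to −1.05). Cldn15, whose product forms the main cation channel of the intestinal junction, was at 101.2 CPM in the WT library (6090 UMIs) and at 48.8 CPM in the KO library (1835 UMIs), a ratio of −1.05 (−1.13 to −0.98). Cells with at least 1 Cldn2 UMI made up 61.4% of WT cells and 33.6% of KO cells. For Cldn15 the shares were 59.5% and 30.6%. After each cell was thinned to 3000 UMIs, which left out 172 WT and 97 KO cells, the shares were 25.7% and 13.1% for Cldn2 and 23.9% and 13.3% for Cldn15. The share was lower in KO cells at equal depth too.

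The sequence before the RefSeq start of these genes is shown because both were lower over all cells. Cldn2 lies on chromosome X (139800828 to 139811386, plus strand) and Cldn15 on chromosome 5 (136966616 to 136975858, plus strand) in the GENCODE vM21 annotation of GRCm38. The windows are the 250 bases before the RefSeq start in GRCm38.p6, written 5′ to 3′ on the gene's strand. They are at chrX:139800558-139800807 for Cldn2 and chr5:136967619-136967868 for Cldn15. The Cldn15 window lies inside the GENCODE span of the gene, because its RefSeq start is downstream of the GENCODE start. Capitals mark matches on either strand to TTTAT (the core recognised by caudal-type homeobox factors such as Cdx2), TATAAA (the TATA box) and TGANTCA (the AP-1 element).
Cldn2: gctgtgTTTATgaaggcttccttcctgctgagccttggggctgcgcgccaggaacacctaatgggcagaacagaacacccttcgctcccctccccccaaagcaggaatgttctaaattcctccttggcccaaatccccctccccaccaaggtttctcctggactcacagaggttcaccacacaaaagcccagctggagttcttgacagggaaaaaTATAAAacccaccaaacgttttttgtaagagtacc
Cldn15: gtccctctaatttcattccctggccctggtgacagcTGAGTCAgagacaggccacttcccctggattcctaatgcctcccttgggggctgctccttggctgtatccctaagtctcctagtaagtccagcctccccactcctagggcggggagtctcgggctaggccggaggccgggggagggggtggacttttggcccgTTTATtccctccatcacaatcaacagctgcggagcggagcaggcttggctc
TTTAT matched at 244 and 34 bases before the start in Cldn2 and at 51 bases before it in Cldn15. The nearer match in Cldn2 lies on the other strand within TATAAA, whose letters contain the reverse complement of TTTAT. Of 32851 promoter windows of this length, 37.3% held TTTAT, 12.4% TATAAA and 6.75% TGANTCA. Such matches describe these letters and are not evidence of a bound site.

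Within clusters, Cldn15 was lower in the KO library in all 6 clusters with at least 50 cells on each side, by ratios from −1.77 to −0.84. Cldn15 was highest in the goblet-like cluster 2 in both libraries, at 191.9 CPM in WT and 92.4 CPM in KO cells, and lowest in the colonocyte-like cluster 4, at 38.7 and 11.9 CPM. The order of its clusters from highest to lowest was 2, 0, 3, 1, 5 and 4 in both libraries. Neighbours with overlapping intervals were clusters 0 and 3 in WT cells, and clusters 3 and 1 and clusters 5 and 4 in KO cells.

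Cldn2 had a different pattern. Its ratio lay between −1.80 and −1.20 in 5 clusters, while in the goblet-like cluster 2 it was at 94.3 CPM in WT and 90.4 CPM in KO cells, a ratio of −0.06 (−0.22 to 0.10). The highest WT level was in the cycling-like cluster 3, at 139.9 CPM, where KO cells had 50.9 CPM. Cluster 2 had the second lowest of the 6 WT levels with an interval that overlapped those of clusters 4 and 5, and the highest of the KO levels. In WT cells the highest and lowest cluster differed 1.83-fold, and in KO cells 4.12-fold. In cluster 2, 16.7% of the measured genes were lower and 14.4% were higher.

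**Figure D2:**
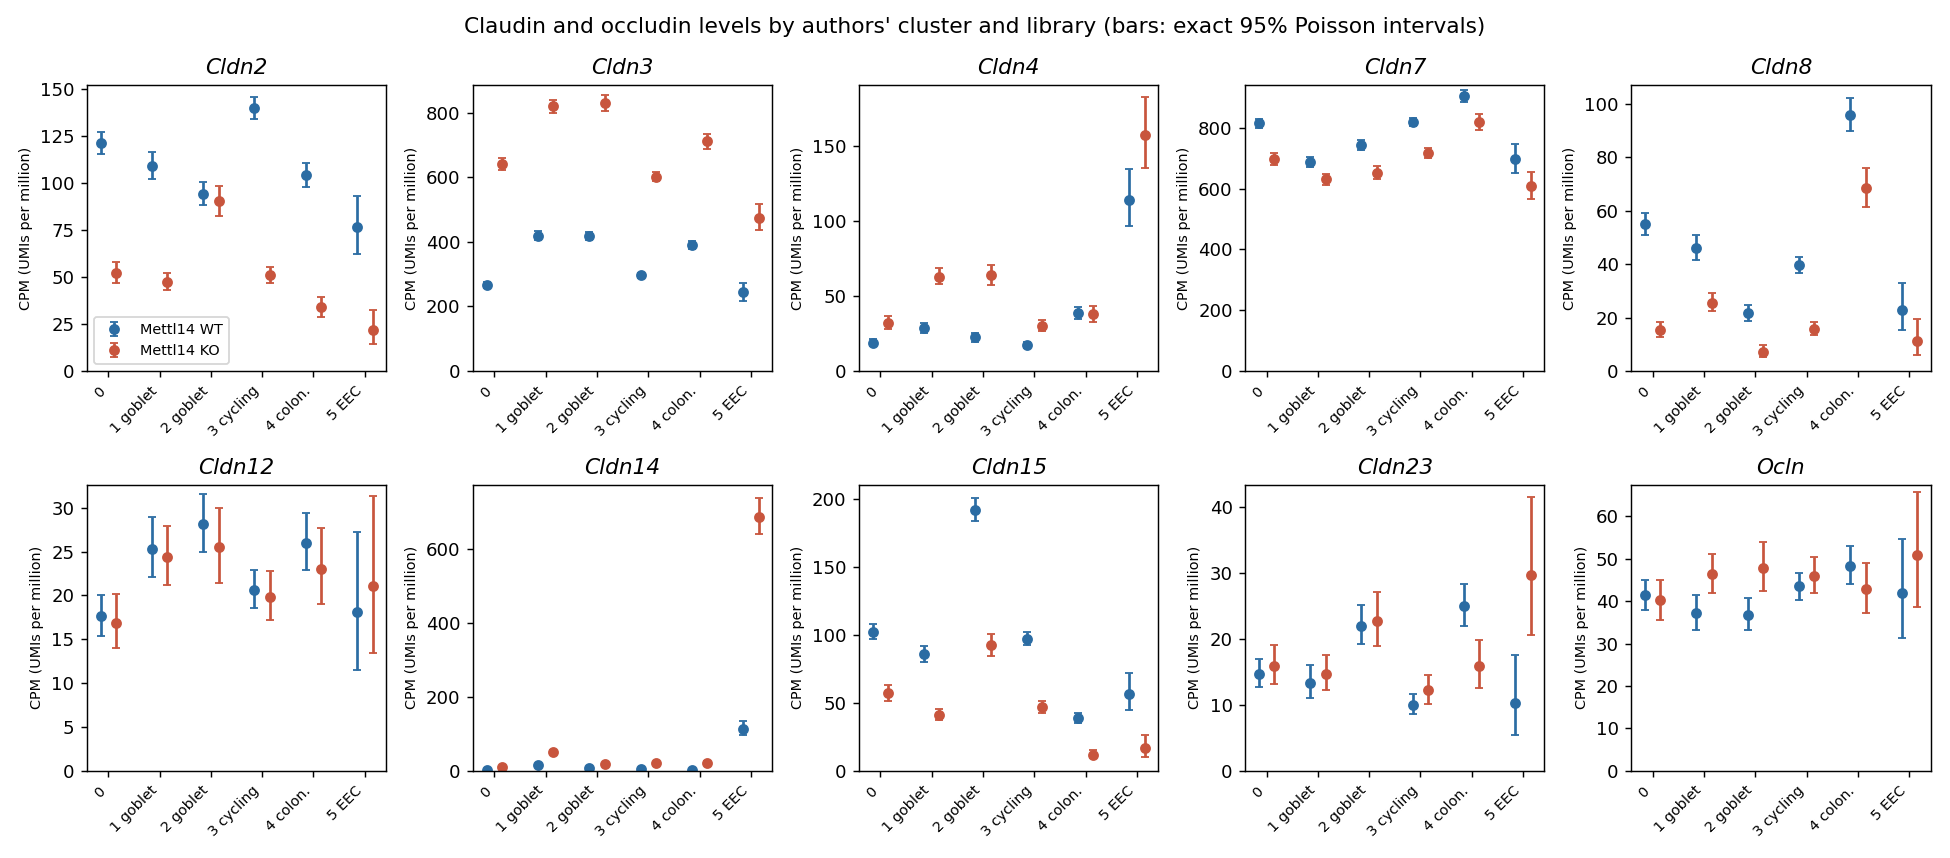
CPM of each member by cluster in the WT and KO libraries, with exact 95% Poisson intervals as bars. Cldn3 stands higher in the KO library in every cluster from 0 to 5, Cldn15 stands lower in each, and Cldn2 is level only in cluster 2 (94.3 and 90.4 CPM).

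Among the sealing claudins, Cldn3 and Cldn4 were higher in the KO library. Cldn3 was at 341.9 CPM in the WT library (20586 UMIs) and at 702.2 CPM in the KO library (26426 UMIs), a ratio of 1.04 (1.01 to 1.06). The share of cells with a Cldn3 UMI was 92.4% in WT and 96.4% in KO cells, and 63.4% and 83.7% at equal depth. In every one of the 6 clusters Cldn3 was higher in the KO library, with ratios from 0.87 in cluster 4 to 1.27 in cluster 0. That range of 0.40 on the log2 scale was smaller than the 1.74 of Cldn2 or the 0.93 of Cldn15. The gene lies on chromosome 5 (134986214 to 134987472, plus strand). The antisense gene Wbscr25 overlaps Cldn3 and held only 30 WT and 17 KO UMIs. Whether the counting used strand is not given in the sources used here.

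Cldn4, whose product tightens junctions and also binds a Clostridium toxin, was at 25.7 CPM in the WT library (1545 UMIs) and at 47.9 CPM in the KO library (1804 UMIs), a ratio of 0.90 (0.80 to 1.0). At equal depth 7.38% of WT and 12.6% of KO cells held a Cldn4 UMI. The ratio was 1.14 and 1.505 in the goblet-like clusters 1 and 2 and 0.79 and 0.80 in clusters 0 and 3. In the colonocyte-like cluster 4 the levels were 38.6 and 37.8 CPM, a ratio of −0.03 (−0.29 to 0.23). Enteroendocrine-like cells had the highest Cldn4 level in both libraries, 114.4 CPM in WT and 157.8 CPM in KO cells. That ratio of 0.46 did not reach 1.5-fold. Of the 180 KO UMIs there, 1 cell held 30, while no WT cell held more than 5. The share of these cells with a Cldn4 UMI was 76.8% in WT and 61.6% in KO cells, and 39.2% and 37.6% at equal depth. A single KO cell of cluster 4 held 47 of that cluster's 187 KO UMIs, while no WT cell held more than 12. The share of cluster 4 cells with a Cldn4 UMI was 28.0% in WT and 19.6% in KO cells, and 11.3% and 7.08% at equal depth. With each cell weighted equally, as the mean of per-cell CPM, the Cldn4 ratio was 0.59.

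Cldn3 and Cldn4 are neighbours on chromosome 5, 39279 bases apart, and their windows are shown because both genes were higher over all cells. The Cldn3 window is chr5:134985964-134986213 on the plus strand and the Cldn4 window is chr5:134946935-134947184 on the minus strand, with the same build, length and marking.
Cldn3: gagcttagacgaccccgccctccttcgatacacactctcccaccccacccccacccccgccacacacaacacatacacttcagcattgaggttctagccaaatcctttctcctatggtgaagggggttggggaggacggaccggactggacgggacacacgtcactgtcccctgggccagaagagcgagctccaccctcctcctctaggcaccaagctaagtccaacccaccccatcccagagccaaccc
Cldn4: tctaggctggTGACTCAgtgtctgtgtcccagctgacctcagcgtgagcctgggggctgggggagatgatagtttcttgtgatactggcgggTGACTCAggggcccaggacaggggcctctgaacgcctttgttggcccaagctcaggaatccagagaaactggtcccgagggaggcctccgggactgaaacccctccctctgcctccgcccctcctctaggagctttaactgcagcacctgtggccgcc
Neither window held TTTAT or TATAAA. The Cldn4 window held TGANTCA, which the Cldn15 window also holds, at 240 and 158 bases before the start, and the Cldn3 window held none of the capitalised motifs. Of the 8 members with a RefSeq window, which together have 14 windows, TTTAT was found in 3 (Cldn2, Cldn15 and 1 of 3 windows of Cldn14), GGGCGG, the Sp1 element, in 6 and CTTTGA, an element of TCF factors, in 0. GGGCGG was in 32.7% and CTTTGA in 13.8% of all windows. These shares are per window, while a member was counted when any of its windows held the motif, so they are not directly comparable. Cldn8 and Cldn23 were not among the windows used here.

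Cldn8, a sealing claudin of the distal colon, stood on the other side. It was at 49.9 CPM in the WT library (3004 UMIs) and at 23.4 CPM in the KO library (880 UMIs), a ratio of −1.09 (−1.20 to −0.98). At equal depth 12.7% of WT cells and 5.23% of KO cells held a Cldn8 UMI. The ratio was −1.84 in cluster 0, −1.59 in cluster 2, −1.33 in cluster 3 and −0.85 in cluster 1. In the colonocyte-like cluster 4, where Cldn8 was highest in both libraries, it was at 95.8 CPM in WT and 68.4 CPM in KO cells, a ratio of −0.49 that did not reach 1.5-fold. The highest and lowest cluster differed 4.45-fold in WT and 9.53-fold in KO cells, so that Cldn8 was more unevenly spread over clusters in the KO library.

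Cldn14 encodes a sealing claudin known from the kidney and the inner ear, where it limits the passage of cations. It had the largest ratio of the 10 members. It was at 8.95 CPM in the WT library (539 UMIs) and at 45.6 CPM in the KO library (1716 UMIs), a ratio of 2.35 (2.21 to 2.49), or 5.09-fold. At equal depth 2.20% of WT and 7.87% of KO cells held a Cldn14 UMI, and the largest count in a single cell was 26 in WT and 81 in KO cells. Its ratio was above 1 in all 6 clusters, from 1.08 in the goblet-like cluster 2 to 2.84 in the colonocyte-like cluster 4. In cluster 4 Cldn14 was at 2.96 CPM in WT and 21.2 CPM in KO cells. Gm49618, annotated on the same strand, overlaps Cldn14 and is not among the gene symbols measured. How tags in the overlap were assigned was not tested.

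Cldn14 was concentrated in the enteroendocrine-like cluster 5, the hormone-secreting cells, which held 99 WT and 151 KO cells. There it was at 114.4 CPM in WT and 688.2 CPM in KO cells, a ratio of 2.59. Cluster 5 held 26.9% of the WT library's Cldn14 UMIs and 45.8% of the KO library's. Without cluster 5 the levels were 6.69 and 25.5 CPM, a ratio of 1.93 (1.76 to 2.11), so the difference was also found outside these cells.

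Within cluster 5, cells were split after the values were seen at 1000 CPM of 3 hormone genes of L cells, Pyy, Gcg and Insl5, which left 25 WT and 32 KO cells above it. Between 300 and 3000 CPM lay 4 WT and 9 KO cells, close to that limit. Above it, Cldn14 was at 312.5 CPM in WT (103 UMIs) and at 1713 CPM in KO cells (500 UMIs), a ratio of 2.45 (2.15 to 2.77). Below it, Cldn14 was at 44.8 CPM in WT (42 UMIs) and at 335.8 CPM in KO cells (285 UMIs), a ratio of 2.91 (2.44 to 3.41). Cldn14 was thus several-fold higher in hormone-rich than in other enteroendocrine-like cells in each library, and higher in KO than in WT cells on both sides.

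At least 1 Cldn14 UMI was found in 14 of 25 hormone-rich WT cells (56.0%) and in 31 of 32 hormone-rich KO cells (96.9%). In the other enteroendocrine-like cells the counts were 16 of 74 in WT (21.6%) and 68 of 119 in KO cells (57.1%). The median depth of these 4 sets of cells ranged from 5124 to 9231 UMIs and was lower in KO cells, and at equal depth the shares were 40.0% and 81.2% for hormone-rich and 9.72% and 40.2% for the other cells. A few cells carried much of the signal. The 10 cells with the most Cldn14 UMIs held 93.2% of them among hormone-rich WT cells and 74.2% among hormone-rich KO cells. In hormone-rich cells the level of Insl5 was 8308 CPM in WT and 1895 CPM in KO cells and that of Pyy 52030 and 39270 CPM, and Gcg (7022 and 3046 CPM) and Sst (15430 and 2981 CPM) were also lower in KO cells. Other enteroendocrine markers stood the other way in the same cells, with Chga at 697.9 and 1018 CPM, Chgb at 358.1 and 1018 CPM and Neurod1 at 194.2 and 510.5 CPM.

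**Figure D3:**
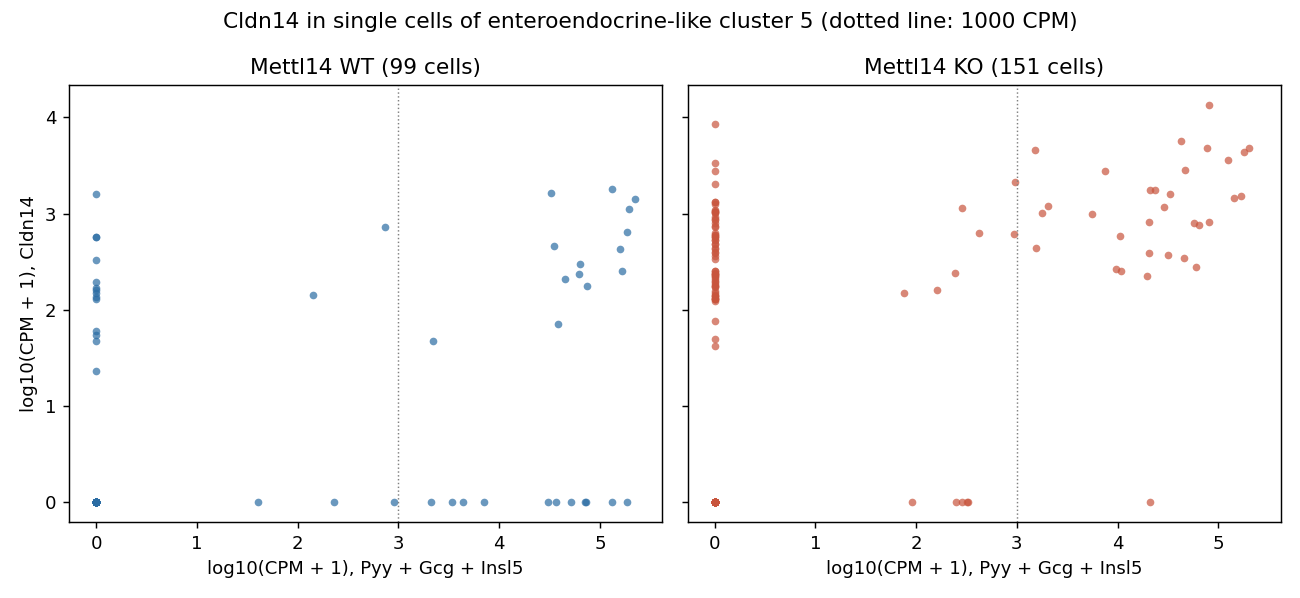
Cldn14 in single enteroendocrine-like cells, split at 1000 CPM of Pyy, Gcg and Insl5 together, with each point 1 cell. Hormone-rich KO cells are at 1713 CPM as a sum and hormone-rich WT cells at 312.5 CPM, and 31 of 32 and 14 of 25 of these cells hold a Cldn14 UMI.

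The members left are those that differed little over all cells. Cldn7, a basolateral claudin that binds EpCAM and is needed for an intact intestinal epithelium in mice, was at 792.5 CPM in the WT library (47713 UMIs) and at 693.2 CPM in the KO library (26089 UMIs), a ratio of −0.19 (−0.22 to −0.17). The interval excluded equal levels in all 6 clusters, but the ratios, from −0.22 to −0.13, were well short of 1.5-fold. They spanned 0.10 on the log2 scale, the narrowest range of the 10 members. Cldn7 was highest in cluster 4 in both libraries.

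Cldn12, an unusual claudin linked to paracellular calcium passage in mice, was at 22.6 CPM in WT (1362 UMIs) and 21.6 CPM in KO cells (814 UMIs), a ratio of −0.06 (−0.19 to 0.06), and no cluster had an interval off 0. Cldn23, a claudin of the surface epithelium, was at 16.1 CPM in both libraries (966 WT and 606 KO UMIs). The ratio over all cells was 0.01, while in cluster 4 it was at 24.98 CPM in WT and 15.97 CPM in KO cells, a ratio of −0.64 (−1.03 to −0.27). In cluster 5 it held 13 WT and 34 KO UMIs, under the minimum of 50, and is not counted there. Ocln, which encodes a tight junction protein of the MARVEL family and no claudin, was at 41.6 CPM in WT (2507 UMIs) and 44.96 CPM in KO cells (1692 UMIs), a ratio of 0.11 (0.02 to 0.20). Its ratio reached 0.32 in cluster 1 and 0.38 in cluster 2, both below 1.5-fold.

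Counted by cluster, the members were higher, lower and neither in 3, 3 and 4 cases in clusters 0, 1 and 3, in 3, 2 and 5 cases in cluster 2 (beside 14.4% higher and 16.7% lower over all measured genes) and in 2, 3 and 5 cases in cluster 4. In cluster 5, 7 members were measured and 2 were higher, 2 lower and 3 neither, and in cluster 6 the 2 members measured were neither. The share of all measured genes that was higher and lower was 19.9% and 12.9% in cluster 0, 13.1% and 16.8% in cluster 1 and 17.5% and 11.7% in cluster 3. It was 16.0% and 12.7% in cluster 4, 14.9% and 9.76% in cluster 5 and 9.85% and 13.6% in cluster 6. The same members stood on the same side in most clusters: Cldn3 and Cldn14 were higher in all 6, and Cldn15 was lower in all 6.

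In a second clustering of the same cells, made here from the counts with the members and the junction genes left out, 24 of 35 clusters had at least 20 cells on both sides. The ratio was above 0 in 24 of them for Cldn3 and for Cldn14 and in 21 for Cldn4. It was above 0 in 2 for Cldn2, in 1 for Cldn8 and in 0 for Cldn15 and Cldn7. Within the Xist-positive cells the ratio was −1.03 for Cldn2, −1.04 for Cldn15, −1.14 for Cldn8, 1.01 for Cldn3, 1.05 for Cldn4 and 2.27 for Cldn14. Within the Y-positive cells it was −1.16, −1.31, −1.02, 1.02, 0.67 and 2.13 in that order. Each of the 6 genes stood on the same side in both sets of cells.

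The mixture of claudins differed accordingly. All 10 members together made up 1516 CPM in the WT library (91276 UMIs) and 1697 CPM in the KO library (63862 UMIs). Of these UMIs, Cldn7 held 52.3% in WT and 40.9% in KO cells, and Cldn3 22.6% and 41.4%. Tags of Cldn3 and Cldn7 were thus about equal in number in the KO library, while in the WT library Cldn7 tags were the more frequent. Cldn14 held 0.59% and 2.69%.

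As a summary chosen after the values were seen, the UMIs of Cldn2 and Cldn15 were set against those of Cldn3 and Cldn4. For every 100 UMIs of the sealing pair, the channel-forming pair held 59.0 in WT and 13.6 in KO cells. The WT value ranged from 33.4 in cluster 4 to 78.6 in cluster 0. The KO value ranged from 6.09 in cluster 5 to 20.4 in cluster 2, and was below the lowest WT value in each of clusters 0 to 5. Cldn8, a sealing claudin left out of this summary, was lower in the KO library, so the summary does not hold for sealing claudins in general.

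Position along the path to mature colonocytes was approached by ranking the cells of clusters 0, 3 and 4 in each library by the CPM of 10 colonocyte markers and cutting them into 4 sets of equal size, with 671 WT and 549 KO cells each. This ranking was chosen after the values were seen, and the sets are ranges of a score and not cell types. Cells of cluster 4 made up 57.4% of the top set in WT and 50.3% in KO cells, and 9.09% and 6.92% of the bottom set. The ranking was made within each library, so the marker level of a set was not matched between libraries.

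Along this ranking Cldn8 was higher in each set than in the one before it, in both libraries. From bottom to top its level was 28.8, 41.5, 50.3 and 108.0 CPM in WT cells and 6.34, 9.03, 19.5 and 67.3 CPM in KO cells. Its ratio was −2.18 and −2.20 in the lower sets, −1.37 in the next and −0.68 in the top set. The gap between the libraries was thus widest in cells with few colonocyte markers.

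Cldn15 showed the opposite order. Its WT levels were 81.5, 90.5, 90.9 and 72.7 CPM from bottom to top, with no steady trend, while its KO levels were 64.8, 50.6, 36.5 and 23.9 CPM. Its ratio went from −0.33 in the bottom set through −0.84 and −1.31 to −1.61 in the top set. The KO over WT ratio of Cldn2 lay between −1.49 and −1.27 in the 4 sets and that of Cldn3 between 0.94 and 1.15, although the levels themselves differed along the ranking. The top set over the bottom set was −0.69 in WT and −0.47 in KO cells for Cldn2, and 0.68 and 0.49 for Cldn3, on the log2 scale. Cldn14 had ratios between 1.28 and 2.64, and Cldn4 went from 0.53 in the bottom set to 0.97 in the third and 0.11 in the top set. For Cldn23 the ratio was 0.42 in the bottom and −0.55 in the top set.

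**Figure D4:**
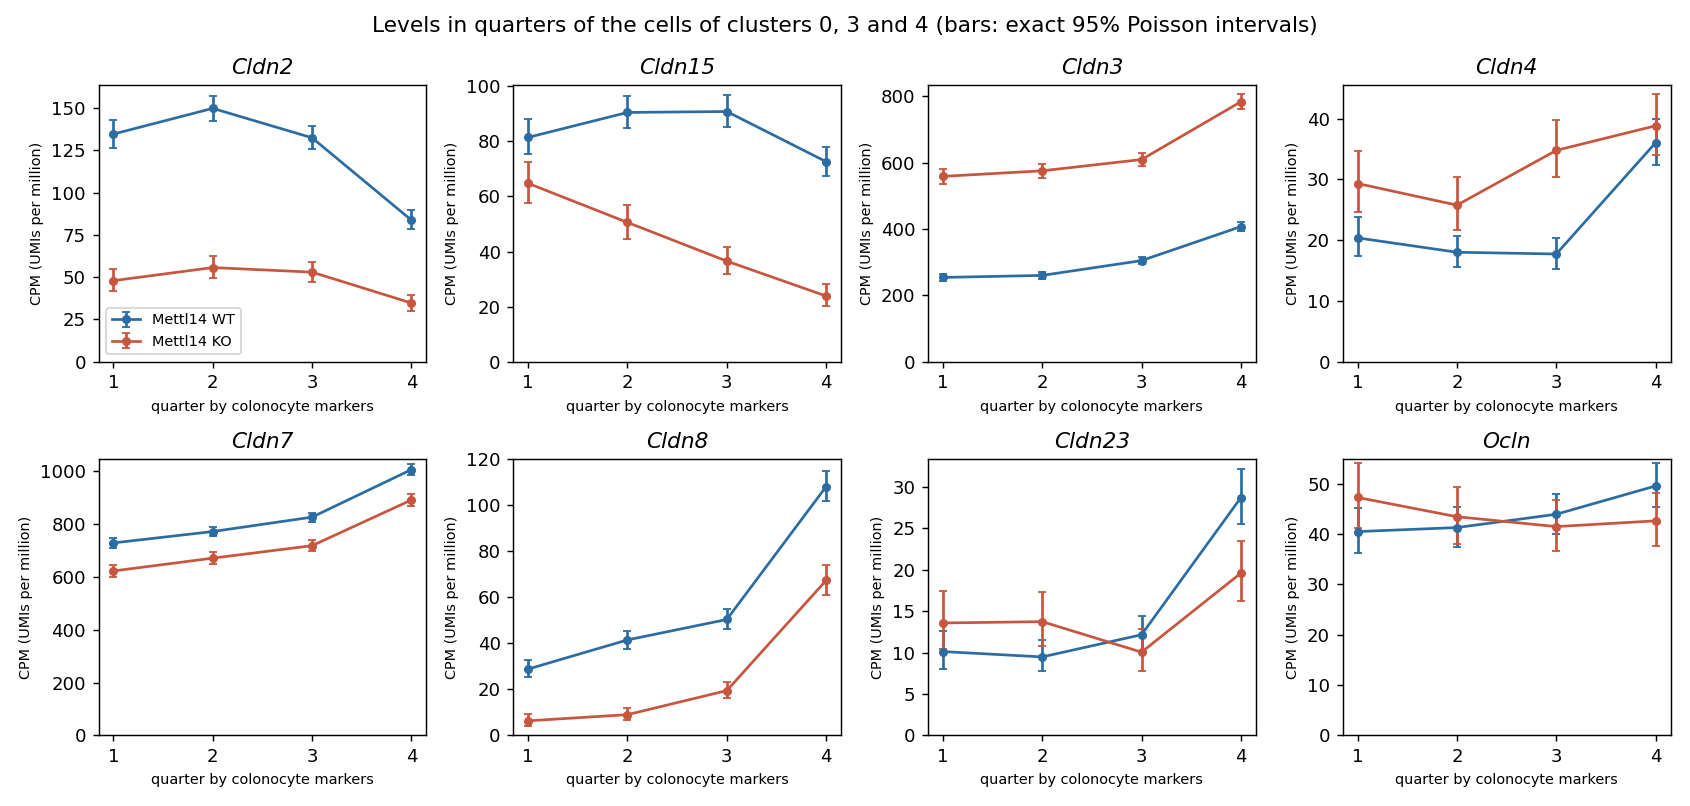
CPM of members in 4 sets of cells of clusters 0, 3 and 4 ranked within each library by 10 colonocyte markers, with exact 95% Poisson intervals as bars. Cldn8 goes from 28.8 to 108.0 CPM in WT and from 6.34 to 67.3 CPM in KO cells, and Cldn15 from 64.8 to 23.9 CPM in KO cells beside 81.5 and 72.7 CPM at the ends in WT cells.

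Background signal, from free RNA or doublets, was gauged in WT cells with at least 10 UMIs of stromal markers, as stromal cells should lack claudins. Of 62 such cells, with a median of 3367 UMIs, 29.0% held a Cldn3 UMI, 29.0% a Cldn7 UMI, 21.0% a Cldn2 UMI, 14.5% a Cldn8 UMI, 9.68% a Cldn15 UMI and 8.06% a Cldn4 UMI. Cldn14 was found in 0 of 62, for which the exact interval reaches 5.78%. At equal depth, over 35 of these cells, the shares were 25.7% for Cldn3, 11.4% for Cldn2, 8.57% for Cldn8 and Cldn15 and 5.71% for Cldn4. The KO shares of Cldn2 (13.1%) and Cldn8 (5.23%) and the WT share of Cldn4 (7.38%) given above were close to or below these values. Background may be part of such shares, but how large a part was not tested. The gauge comes from WT cells with few UMIs, beside a median of 12094 in the WT library. It therefore does not measure the background of KO cells or of deeper cells. Epcam UMIs were in 35.5% of these stromal-marker cells, and only 8 such cells were in the KO library, too few for its own background. Of the 62 WT cells, 55 lay in cluster 6. Doublets were not removed, so free RNA and doublets cannot be told apart here. Summed, the 62 cells were at 168.0 CPM for Cldn3, 85.3 for Cldn2, 38.8 for Cldn4 and 36.2 for Cldn8 and Cldn15. For Cldn2 and Cldn8 this was above the KO library's level, and for Cldn4 above the WT library's. For Cldn3 and Cldn15 it was below both. These sums are not a floor, since Cldn8 was at 21.55 CPM in WT cluster 2 and Cldn4 at 17.3 CPM in WT cluster 3. The 62 cells also held Epcam at 853.2 CPM. Whether the KO levels of Cldn2 and Cldn8 hold background was not tested.

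Other claudins were rare. Of 9 further symbols that begin with Cldn, 3 reached 50 UMIs. Cldn10, which encodes a claudin known to form ion channels in the kidney, was at 2.23 CPM in the WT library (134 UMIs) and 5.37 CPM in the KO library (202 UMIs), a ratio of 1.27 (0.95 to 1.60). Cldn34c1 held 22 WT and 47 KO UMIs, and Cldnd1, a claudin-domain gene, was at 36.8 and 31.7 CPM with a ratio of −0.22.

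The proteins that anchor, bind or act on claudins were followed as a list of 73 genes, of which 69 were measured. In the KO library 8 were higher, 12 were lower and 49 were neither, with a median ratio of −0.14, beside 16.7% higher and 16.2% lower over all genes. Among 20 scaffold and plaque genes, 1 was higher and 4 were lower. Tjp1, which encodes the scaffold ZO-1, had a ratio of −0.59 (29.4 and 19.6 CPM), only just past 1.5-fold. Within clusters, Tjp1 was lower in clusters 1, 2 and 4 and neither in clusters 0, 3 and 5. The polarity kinase gene Prkci had −1.06 (37.0 and 17.7 CPM) and the angiomotin gene Amot −1.31 (28.6 and 11.5 CPM). The polarity gene Crb3 had 0.85 (52.3 and 94.2 CPM).

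Among 11 adherens junction and surface genes, 2 were higher and 0 lower. The cell adhesion gene Nectin2 was at 37.2 CPM in the WT library and 120.8 CPM in the KO library, a ratio of 1.70, and was higher in each of clusters 0 to 5. Of 7 desmosome genes, 2 were lower: Jup, which encodes plakoglobin (−0.81), and Ppl, which encodes periplakin (−1.10). Of 8 genes listed as other tight junction membrane genes, Igsf5 was higher (0.84) and Vangl2 lower (−0.85). Vangl2 encodes a planar cell polarity protein and is no tight junction protein proper. It was lower in clusters 0, 1 and 3 and neither in clusters 2 and 4.

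Among 11 proteases, kinases and inhibitors that act on junctions, 4 were higher and 2 lower. The myosin light chain kinase gene Mylk, known to loosen junctions when active, was at 10.1 CPM in the WT library (607 UMIs) and 40.6 CPM in the KO library (1529 UMIs), a ratio of 2.01 (1.87 to 2.15). The ratio was 3.21 in cluster 0 and 1.70 to 1.95 in clusters 1 to 4. The membrane protease genes St14, which encodes matriptase, and Prss8, which encodes prostasin, had ratios of 0.84 and 0.79, and Spint1, which encodes an inhibitor of matriptase, had 0.73. The myosin gene Myh14 (−0.78) and the kinase gene Wnk4 (−0.92) were lower.

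Of 12 transcription factors known to act on claudin genes, 0 were higher and 3 were lower. Hnf4a was at 85.7 CPM in the WT and 56.3 CPM in the KO library (−0.61), only just past 1.5-fold. Within clusters, Hnf4a was lower in clusters 3, 4 and 5 and neither in clusters 0, 1 and 2. Hnf4g was at 14.7 and 6.59 CPM (−1.16) and was lower in each of clusters 0 to 4. Snai2 held 53 WT and 0 KO UMIs, at least 11.04-fold lower against a floor of 3 UMIs over the library. Among clusters 0 to 5, its WT UMIs were 10 in cluster 0, 4 in cluster 2 and 2 in cluster 4, and the remainder came from stromal-like cluster 6, with 117 WT and 31 KO cells. The part of that difference in cell number was not tested.

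The members' profiles over 12 points, the 6 clusters in each library, were compared with those of 9493 genes with at least 500 UMIs. These correlations are descriptions, since the points of a library share its depth and preparation. Closest to Cldn3 were AW112010 (r = 0.97) and Degs2 (r = 0.97), closest to Cldn8 Rdh16 (r = 0.95), closest to Cldn14 Socs5 (r = 0.96) and Mdm2 (r = 0.95), closest to Cldn2 Snhg9 (r = 0.93) and closest to Cldn15 Fam107b (r = 0.93). Between members, r was 0.88 for Cldn4 and Cldn14, 0.81 for Cldn2 and Cldn15 and 0.80 for Cldn7 and Cldn8. It was lowest, at −0.75, for Cldn7 and Cldn14.

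The longest coding transcript of each member was also searched for GGACT, the commonest m6A motif, as a property of the sequence and not of methylation, which was not measured. Cldn4 held 2.75 per kb, Cldn23 1.62, Cldn15 1.58, Cldn14 1.37 and Cldn12 1.33, while Cldn2 held 0.99, Cldn3 0.79, Ocln 0.49, Cldn8 0.42 and Cldn7 0. The median over 12557 genes was 1.05, with quartiles of 0.64 and 1.52. Higher and lower members stood on both sides of that median: Cldn3 below it and Cldn4 and Cldn14 above it among the higher, Cldn2 and Cldn8 below it and Cldn15 above it among the lower.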

How the data were processed

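Deposited by the authors were a filtered table of UMI counts, whole numbers for each gene and cell, and a second table with each cell's library and cluster. Cell Ranger, bcl2fastq and the build mm10 are named per the submitters' processing notes. Versions, cell filter and clustering method are not given in the sources used here. All value columns could be tied to a library, leaving 0 unassigned. The deposited counts were summed over cells and scaled by their total to CPM. Intervals at 95% are exact Poisson for CPM, conditional binomial for ratios and Clopper-Pearson for shares. They cover counting error only. With 1 library per genotype, no test or p-value is given. Genes needed at least 50 UMIs over both libraries.

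The members, lists and alternatives were chosen with earlier results of these data known. Named genes were all members, Mettl14, Epcam, other claudins with at least 50 UMIs, and up to 4 genes per direction and junction subgroup, ranked by the interval bound nearest to 0. The genes in single clusters and the hormone genes were chosen after their values were seen. Clusters were named from marker lists. Doublets were not removed. Cells that held Xist as well as Y-linked UMIs (437 WT, 304 KO) were left out as an alternative. edgeR 4.0.16 and DESeq2 1.42.0 served only for alternative scaling factors, and scanpy 1.11.5 for the second clustering (30 principal components, 15 neighbours, Leiden resolution 2). Python 3.11.15, scipy 1.17.1 and R 4.3.3 were used. Positions come from GENCODE vM21 and promoter windows from RefSeq. Counts were simulated for the KO against WT comparison over all cells, with 13334 genes and 100 changed 2-fold each way. The rule recovered 99.0% of higher and 96.0% of lower genes, and 95.4% of intervals covered the true ratio. These counts held Poisson error only, with no variation between animals or preparations, so coverage near 95% was built in. They say nothing of error between libraries.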

Additional observations from a re-analysis of the deposited data

How the results depend on the processing

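Values were recomputed under 19 alternatives, of which leaving out cluster 5 and the equal weighting of the 4 ranked sets were added after the data were seen. Over these, no member with a called direction changed sign. Alternatives that changed only the minimum count or the fold left every ratio as it was, so they could not change a sign or a range. The ratio ranged from −1.38 to −0.89 for Cldn2, −1.31 to −0.95 for Cldn15, −1.60 to −0.84 for Cldn8, 0.92 to 1.08 for Cldn3, 0.53 to 1.05 for Cldn4, 1.93 to 2.51 for Cldn14 and −0.27 to −0.11 for Cldn7. Cldn4 fell short of 1.5-fold in 1 of the 19, with equal weight for the ranked sets (0.53). Cldn12 and Cldn23 kept their sign in 17 and 13. At 2-fold the junction list had 2 genes higher and 6 lower, and the members had 2 higher and 3 lower, with Cldn4 no longer counted, because the rule is stricter. At 1.5-fold the junction list ranged from 7 to 10 genes higher and from 9 to 15 lower over the other alternatives. The count of 15 lower, beside 7 higher, came with mitochondrial, ribosomal-protein and haemoglobin genes left out of the total. With TMM scaling, an edgeR method, 8 were higher and 10 lower. The members' median ratio was 0.13 with cells of at most 10% mitochondrial share, and the cause was not tested. Leaving mitochondrial, ribosomal-protein and haemoglobin genes out of the total moved the median of all genes from −0.04 to −0.11. No paired analysis was possible because each genotype has 1 library, and for the same reason no replicate could be left out. Cldn14, Cldn23 and Cldn12 rest on the fewest UMIs.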
